A study of Mus musculus with 13 samples.

Results

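The 10 genes described here encode the MYC, MAX and MXD network of transcription factors and are named Myc, Mycn, Mycl, Max, Mxd1, Mxd3, Mxd4, Mxi1, Mnt and Mga. They were taken by symbol from the 53465 genes of the deposited expression table, and each symbol matched 1 row. Their RNA was measured by RNA-seq of bulk tissue in 3 ovaries of untreated wild-type (WT) C57BL/6 female mice and in 10 untreated MP tumors. MP tumors are EPO-GEMM tumors, which arise in an adult ovary after plasmids are electroporated into it. The hosts were female C57BL/6 mice of 8 to 12 wk, the plasmids carried Cas9 with an sgRNA against Trp53 and a MYC transposon, and electroporation is not restricted to 1 cell type of the ovary. The age of the mice at tissue collection is not given in the sources used here.

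MYC, MYCN and MYCL are related transcription factors that bind DNA only as dimers with MAX. The dimers recognise the E-box, a short palindrome, and mostly raise transcription of genes for growth, ribosome production and metabolism. The MXD proteins (MXD1, MXD3, MXD4 and MXI1), MNT and MGA also pair with MAX and repress transcription at the same sites. In many tissues MYC family RNAs mark dividing cells and MXD RNAs mark cells that leave the cycle. The question put to the data was whether tumors driven by a MYC transgene kept, lost or exchanged the RNAs of the network, and whether any tumor changed its leading Myc family member.

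The E-box itself was found near the start of 3 genes of the network, and these stretches are shown because they carry the site at which the network's own dimers bind. Windows of 300 bases around the annotated start (RefSeq, GRCm38.p6) were given for 9 of the 10 genes, and the letters CACGTG, which read the same on both strands, stood in the windows of Max, Mxd4 and Mnt. The site began 3 bases before the RefSeq start in Max and so spans that start (chr12:76962199-76962301, minus strand). It began 219 bases before the start in Mxd4 (chr5:34187874-34187960, minus strand) and 123 bases before it in Mnt (chr11:74830751-74830856, plus strand). The Max row of the expression table starts at 76962201, downstream of the site, so the site does not span that start. The last bases of the Max window were in no GENCODE M21 transcript of Max, and which start is used was not tested. The E-box is in capitals, 5′ to 3′ on the gene's strand.
Max: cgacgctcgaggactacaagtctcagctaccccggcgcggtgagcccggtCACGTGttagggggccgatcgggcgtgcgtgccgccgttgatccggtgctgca
Mxd4: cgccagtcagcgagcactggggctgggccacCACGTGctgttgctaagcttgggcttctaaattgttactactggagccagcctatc
Mnt: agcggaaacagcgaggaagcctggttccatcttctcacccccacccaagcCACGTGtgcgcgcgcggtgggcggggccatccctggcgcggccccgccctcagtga
The same letters stood in 7.15% of all 32851 windows of this length and in at least 1 window of 8.09% of all genes. A match is a run of letters and not evidence of binding.

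Values are TPM, abundances scaled for gene length with a total of 1000000 per library, and a gene's value falls when other genes take more of that total. Libraries are called WT1 to WT3 and MP1 to MP10 by the number in their labels. The table gave back whole reads, between 31445004 and 64013840 per ovary and between 3892690 and 19906507 per tumor, so low values are less certain in the tumors. The sample descriptions carry 1 of 3 series codes, called label series A (the 3 ovaries and MP1 to MP3), B (MP4 to MP6) and C (MP7 to MP10) here. MP1, MP2 and MP3 stood apart in their levels relative to each gene's median over all libraries. These relative levels fell with gene length in MP1, MP2 and MP3 (Spearman rho -0.448 to -0.404). They rose with it in the ovaries (0.182 to 0.241), and the other tumors lay between -0.254 and 0.223. In MP2, 10 genes took 55.1% of all TPM. Trp53, the gene targeted by the sgRNA, was at 80.7 to 85.4 TPM in the ovaries and at 4.30 to 26.0 TPM in MP1 to MP9, and at 187 TPM in the library labelled MP tumor 10. Small insertions or deletions need not change RNA, so this does not test that label. Ovarian cell markers were present in the ovaries, where 5 steroidogenic genes summed to 25024 to 28130 TPM, and were at 7.44 to 824 TPM in the tumors. In bulk tissue, fewer cells of a type and less RNA per cell cannot be told apart.

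Over all 10 tumors, Mycl and Mycn were lower than in the ovaries, and no gene of the network was higher (limma on log2(TPM + 1), Benjamini-Hochberg adjusted over 17277 genes). The 2 of 10 called lower stand beside 14.3% of all genes tested, and the 0 called higher beside 2.51%. At an unadjusted P value under 0.05 the counts were the same, beside 27.4% of all genes lower and 5.63% higher. Voom on the recovered reads also called 2 lower and 0 higher, beside 23.4% and 10.9%. In 18 of 28 alternative settings only 1 gene was lower, because Mycn was not called. All 10 genes passed the filter of 1 TPM in 3 libraries. Mycn and Mycl did so through the 3 ovaries and 3 tumors each.

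**Figure D1:**
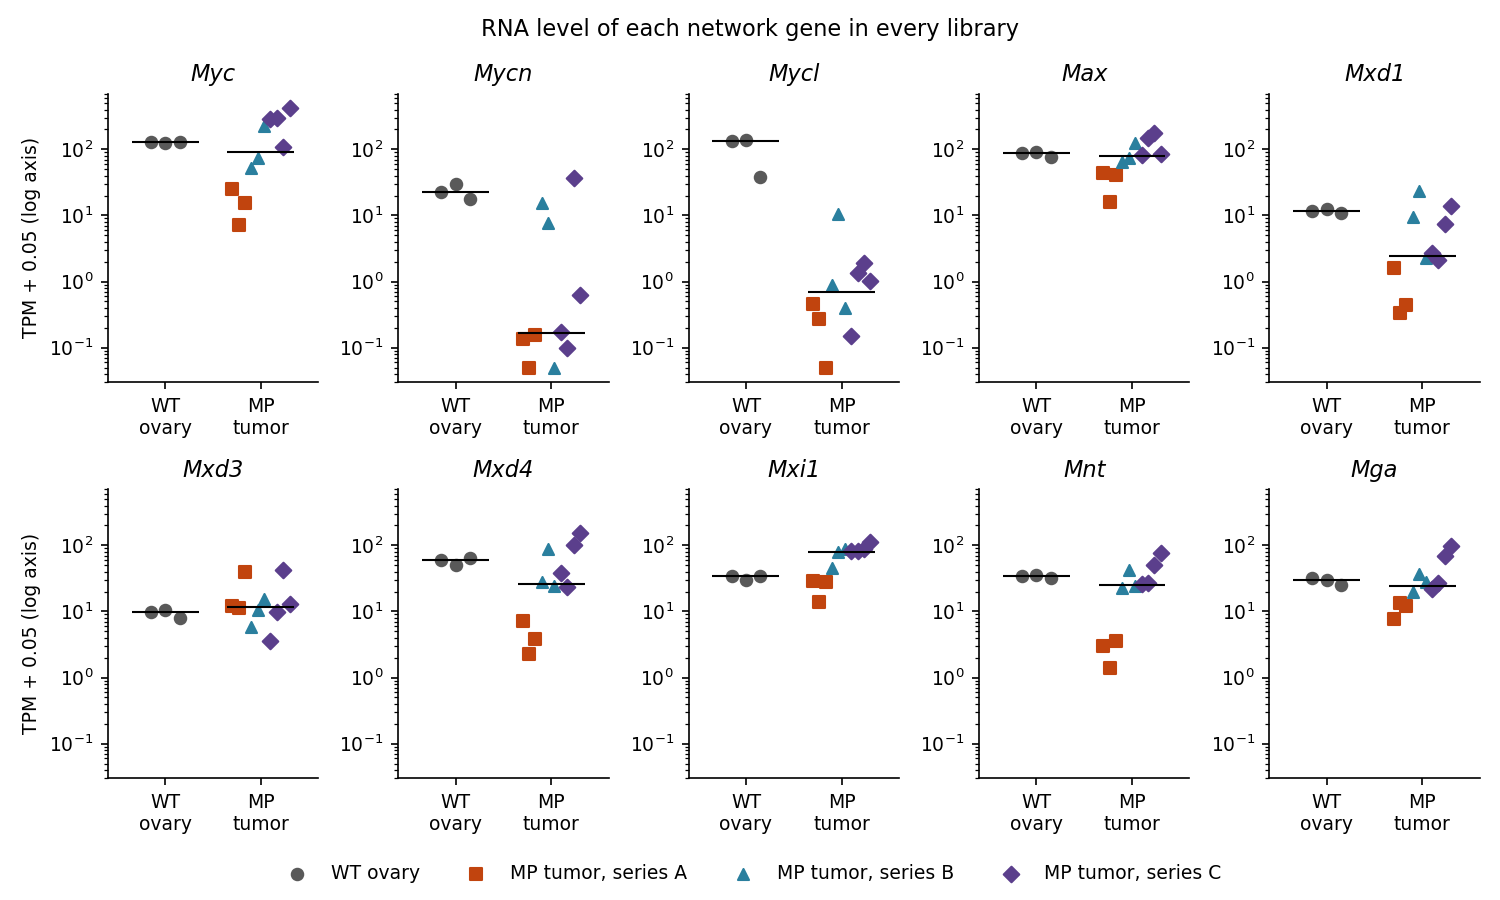
RNA level of each of the 10 genes in 3 WT ovaries (grey) and 10 MP tumors (coloured by label series), as TPM + 0.05 on a log axis, with a line at each group's median. Mycl in all 10 tumors lies below every ovary, Mycn is under 1 TPM in 7 tumors, and the 3 tumors of series A are the lowest for Myc, Max, Mxd1, Mxd4, Mxi1, Mnt and Mga.

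Myc, the broadly expressed family member, had nearly the same level in each ovary and very different levels in the tumors. Its row (chromosome 15, 61985391 to 61990374, plus strand, GRCm38) held 127, 126 and 129 TPM in WT1 to WT3. The tumors MP1 to MP10 held 24.7, 7.09, 15.3, 51.7, 73.6, 222, 287, 298, 107 and 419 TPM. No tumor lay within the ovaries' range, with 6 below it and 4 above it, and the highest tumor was 59.2 times the lowest. The fitted log2 difference was -0.67 (SE 1.02) with an adjusted P of 0.654 (limma), and it was 0.03 with median-of-ratios scaling and 0.37 without MP1, MP2 and MP3, neither called. Whether reads of the transposon's MYC fall in this row depends on the species of its coding sequence, which is not given in the sources used here, so the row may or may not include transgene RNA.

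Mycn, best known from the developing nervous system and from neuroblastoma, was present in every ovary and nearly gone in most tumors. Its row (chromosome 12, 12936093 to 12941914, minus strand) held 22.7, 30.0 and 17.95 TPM in the ovaries. In 7 tumors it was at 0 to 0.585 TPM, which rested on 0 to 3 reads each, and MP2 and MP6 had no read, which allows up to 0.164 and 0.323 TPM at a count of 3. In the other 3 it was at 15.3 TPM in MP4 (88 reads, 95% Poisson interval 12.3 to 18.8), 7.68 TPM in MP5 (32 reads, 5.25 to 10.8) and 36.3 TPM in MP9 (318 reads, 32.4 to 40.5). These intervals cover counting error only. MP9 alone was above every ovary. The log2 difference was -3.24 (SE 1.05) with an adjusted P of 0.0474, and the call was lost in 18 of 28 alternative settings, where the adjusted P reached 0.169. The difference was negative in all 28, from -5.11 to -2.59. The call was lost when MP1, MP2, MP3, MP6, MP7, MP8, MP10 or any 1 ovary was left out.

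Of 8 epithelial and mesothelial markers, Wt1, Krt19 and, near 0 in most libraries, Pax8 were highest in the 3 tumors with 32 or more Mycn reads. The other 5 each peaked in MP4 or MP9, but their level in MP5 was below that of MP1. Wt1 and Krt19 were singled out after their values were seen. Wt1 was at 48.5, 163 and 130 TPM in MP4, MP5 and MP9, at 0.135 to 24.5 TPM in the other 7 tumors, and at 45.5 to 49.6 TPM in the ovaries. Krt19, a keratin of simple epithelia, was at 205, 32.8 and 151 TPM in those 3 tumors and at 0 to 4.95 TPM in the others. Krt8 was at 425 TPM in MP4, 93.2 in MP1 and 72.1 in MP8, above the 48.6 and 31.9 TPM of MP5 and MP9. Epcam was at 15.7 TPM in MP4 and 10.7 TPM in MP1, against 3.49 and 4.43 TPM in MP5 and MP9. The 8 epithelial markers summed to 1210, 338 and 660 TPM in MP4, MP5 and MP9, to 8.09 to 208 TPM in the others, and to 325 to 349 TPM in the ovaries. Over all tumors 3 of 7 tested epithelial markers were lower and 0 higher (limma), beside 14.3% and 2.51% of all genes. The 5 fibroblast markers summed to 125, 1565 and 3369 TPM in MP4, MP5 and MP9, the last the highest of any library. The part of these cells in the Mycn values was not tested.

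Mycl, a family member first found in small cell lung cancer, had the largest difference of the network. Its row (chromosome 4, 122995652 to 123002485, plus strand) held 132, 138 and 37.6 TPM in WT1, WT2 and WT3. The tumors held 0.413, 0.223, 0, 0.851, 10.4, 0.352, 0.102, 1.29, 1.86 and 0.955 TPM from MP1 to MP10. Every tumor was below every ovary, and Mycl was the only one of the 10 genes whose groups did not overlap in TPM, beside 19.4% of all genes tested. The log2 difference was -5.54 (SE 0.65) with an adjusted P of 2.51e-05, a fold of 46.4 on the log2(TPM + 1) scale. It passed in all 28 alternative settings, between -6.94 and -4.77. The ovary with the least Mycl, WT3, also had the least Lhcgr, the luteinizing hormone receptor, at 244 TPM against 689 and 865, and the least Cyp17a1, an enzyme of androgen synthesis, at 12.6 TPM against 200 and 286. The other 3 steroidogenic markers did not follow, since Star was lowest in WT2 and Cyp11a1 and Hsd3b1 in WT1. WT3 was also lowest for 6 of 6 oocyte markers, such as Bmp15 at 17.6 TPM against 32.5 and 31.4, and for 4 of 6 granulosa cell markers, such as Amh at 228 TPM against 340 and 441. In the tumors Lhcgr was at 0 to 5.79 TPM, and the part of any of these cells in the Mycl difference was not tested. Of all genes 14.3% were called lower, and among the markers 4 of 5 steroidogenic, 6 of 6 granulosa cell, 6 of 6 oocyte, 4 of 5 smooth muscle, 2 of 4 endothelial, 2 of 5 fibroblast and 0 of 5 leukocyte genes were. Some of them, such as Zp1 and Cyp19a1 with at most 0.289 and 0.183 TPM in any tumor, passed the filter through the ovaries alone.

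The family's make-up changed from a mixture of Myc and Mycl in the ovary to mainly Myc in the tumors, and no tumor led with another member. The Myc row may or may not include transgene RNA, so a lead of the mouse's own Myc cannot be told apart from that of the transposon. Of the summed TPM of the family, Myc made up 45.1%, 42.8% and 70.0% in WT1, WT2 and WT3, and Mycl 46.9%, 46.9% and 20.3%. Mycl was the highest in 2 ovaries and Myc in 1. In the tumors Myc was the highest in 10 of 10, with a share of 73.8% to 99.9% and a median of 98.7%. The sum itself was 185 to 293 TPM in the ovaries and 7.31 to 421 TPM in the tumors. The lowest Myc shares, 73.8% in MP9, 76.2% in MP4 and 80.3% in MP5, belonged to the 3 tumors with Mycn. Mycn made up 24.9%, 22.6% and 8.38% there, within or above its range of 8.04% to 10.2% in the ovaries, and Mycl made up 11.3% in MP5. In the other 7 tumors Myc made up 97.0% to 99.9%. Counted in reads instead of TPM, which favours long genes, the Myc share was 69.7% to 99.9% in the tumors. The second member was Mycl in 6 tumors and Mycn in 4, though in MP3 and MP7 that rank rested on 3 Mycn reads and on 1.

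**Figure D2:**
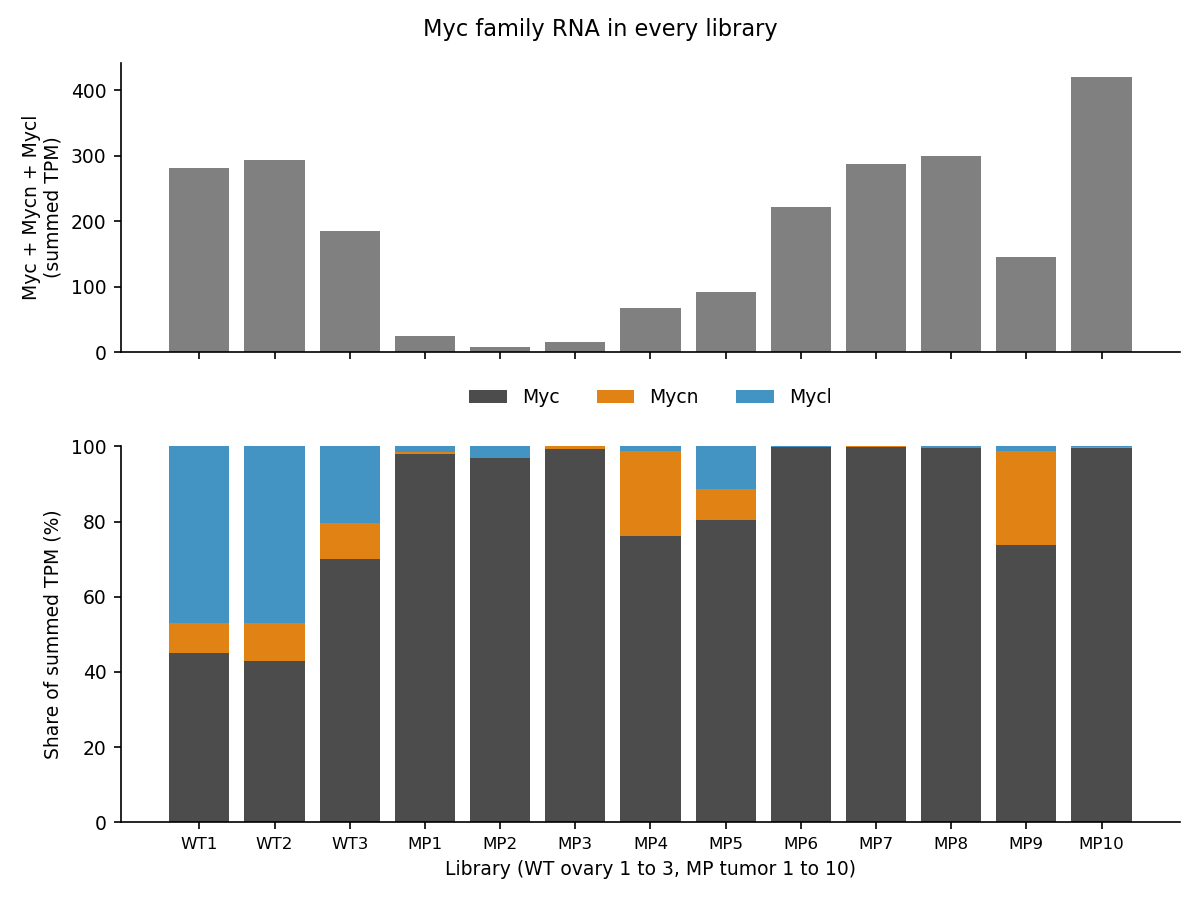
Summed TPM of Myc, Mycn and Mycl (top) and each gene's percent of that sum (bottom) in every library. Myc leads in all 10 tumors, at 73.8% to 99.9% of the sum, with visible Mycn in MP4, MP5 and MP9, while Mycl leads in WT1 and WT2.

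In the 3 tumors with the lowest values in the Myc row, neither of the other members was high. Whether that row counts the transposon's MYC is not given, so the total MYC RNA of these tumors is not known. In MP1, MP2 and MP3, where Myc was at 24.7, 7.09 and 15.3 TPM, Mycn was at 0.0845, 0 and 0.104 TPM and Mycl at 0.413, 0.223 and 0 TPM. In the 3 tumors with Mycn, Myc was at 51.7, 73.6 and 107 TPM. These are lower than the 222 to 419 TPM of MP6, MP7, MP8 and MP10 and higher than the 3 tumors of series A. Since Mycn levels fell into separate sets, 0 to 0.585 TPM and 7.68 to 36.3 TPM, a correlation with Mycn rests on that split and says little of a graded relation. Over the 10 tumors r of log2(TPM + 1) for Myc and Mycn was 0.03 (rho 0.15, permutation, adjusted P 0.943 and 0.680 over 10 relations). After centring on label series it was -0.81 (exact permutation P 0.0475, adjusted 0.237) with rho -0.73 (adjusted 0.399). Myc with Mycl gave r 0.19 (rho 0.38, adjusted permutation P 0.714 and 0.349). Mycn with Mycl gave r 0.57 (rho 0.51, adjusted permutation P 0.136 and 0.195), and 0.94 without the 2 tumors farthest from the median of Mycn (permutation P 0.0313, adjusted 0.157, rho 0.30). None of these 3 relations passed in any setting.

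Max, the partner that MYC family members need and that the repressors share, was similar in mean level between the groups. Its row (chromosome 12, 76937269 to 76962201, minus strand) held 87.9, 90.9 and 75.9 TPM in the ovaries and 43.5, 15.9, 41.4, 65.3, 74.7, 123, 82.4, 151, 177 and 83.8 TPM in MP1 to MP10. Of the tumors 5 were below, 2 within and 3 above the ovaries' range. The log2 difference was -0.25 (SE 0.56) with an adjusted P of 0.769 (limma), and it was positive but not called in 6 of 28 alternative settings, up to 0.46. The summed Myc family TPM was 2.44 to 3.23 times that of Max in the ovaries and 0.372 to 5.02 times in the tumors. It was below the ovaries' range in 8 tumors and above it in MP7 and MP10.

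Mxi1, an MXD protein named for its interaction with MAX, was not called over all tumors in TPM and was called higher on other scales. Its row (chromosome 19, 53310506 to 53375810, plus strand, as the table gives it) held 33.9, 29.6 and 34.1 TPM in the ovaries and 29.0, 13.6, 28.1, 45.5, 78.9, 88.4, 82.7, 82.2, 88.4 and 111 TPM in MP1 to MP10. The 3 tumors of series A were below every ovary and the other 7 were above every ovary. The log2 difference was 0.74 (SE 0.55) with an adjusted P of 0.349, while the median over all genes was -0.58. With median-of-ratios scaling, which sets the median gene near 0, it was 1.43 (SE 0.26, adjusted P 0.00186 by limma). Mxi1 was then at 19.9 to 23.5 in the ovaries and at 41.9 to 84.4 in the tumors on the scaled axis, with no overlap. Under that scaling 7.37% of all genes were called higher, 11.0% lower, and the groups of 20.2% did not overlap. With the trend over gene length removed from each library the difference was 1.54 (adjusted P 0.00157), beside 10.4% of genes called higher and 10.3% lower. Without MP1, MP2 and MP3 it was 1.28 (adjusted P 0.00674), beside 4.68% higher and 13.5% lower. These 3 settings were limma fits as well. The table gives Mxi1 a length of 5619 bases where the merged exons of GENCODE M21 make 6823, which bears on its level beside other genes but not on its differences between libraries.

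Mxd4, an MXD protein often found in resting and differentiated cells (chromosome 5, 34173883 to 34187720, minus strand), held 59.4, 50.3 and 64.9 TPM in the ovaries. The tumors held 7.15, 2.21, 3.83, 28.1, 87.3, 24.2, 37.7, 23.5, 101 and 151 TPM. With 7 tumors below and 3 above every ovary, the log2 difference was -1.20 (SE 0.99, adjusted P 0.399, limma). Mxd1, which rises in differentiating myeloid and epithelial cells (chromosome 6, 86647042 to 86669161, minus strand), held 11.7, 12.5 and 10.97 TPM in the ovaries and 1.53, 0.280, 0.387, 9.31, 23.1, 2.21, 2.63, 2.10, 7.34 and 13.9 TPM in the tumors. It was below every ovary in 8 tumors and above in MP5 and MP10, with a log2 difference of -1.44 (SE 0.79, adjusted P 0.213). Mxd3, the MXD protein tied to S phase and to dividing cells, was not called either. Its row (chromosome 13, 55325168 to 55329823, minus strand) held 9.61, 10.6 and 7.95 TPM in the ovaries and 11.9, 11.2, 39.5, 5.80, 10.3, 15.1, 3.48, 9.65, 42.9 and 12.8 TPM in the tumors. The difference was 0.41 (SE 0.59, adjusted P 0.640) and positive in all 28 alternative settings, 2 of which called it. Mxd3 overlaps Prelid1 on the opposite strand over 105 bases (4.43% of its length), and use of strand in counting is not stated in the sources used here.

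Within the MXD genes the leading RNA differed between tissue and tumors. Mxd4 was the highest of the 4 in all 3 ovaries, at 48.9% to 55.0% of their summed TPM, with Mxi1 at 28.7% to 29.6%. In the tumors Mxi1 was the highest in 6, Mxd4 in MP5, MP9 and MP10, and Mxd3 in MP3. The Mxi1 share was 36.9% to 70.0%, above every ovary in all 10 tumors. The Mxd3 share ranged from 2.76% in MP7 to 55.0% in MP3, and it was 24.0%, 41.1% and 55.0% in the 3 tumors of series A. Shares within a library do not depend on its scaling, though a length trend can still move them, and Mxd4 (8483 bases) and Mxd1 (7072) are longer than Mxi1 (5619) and Mxd3 (2369). The tumors led by Mxd4, MP5, MP9 and MP10, were the only ones whose relative levels rose with gene length (rho 0.193, 0.223 and 0.201), as the ovaries' did. The part of this trend in the lead was not tested. The summed MXD level relative to Max was 1.13 to 1.55 in the ovaries and 0.779 to 3.45 in the tumors.

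**Figure D3:**
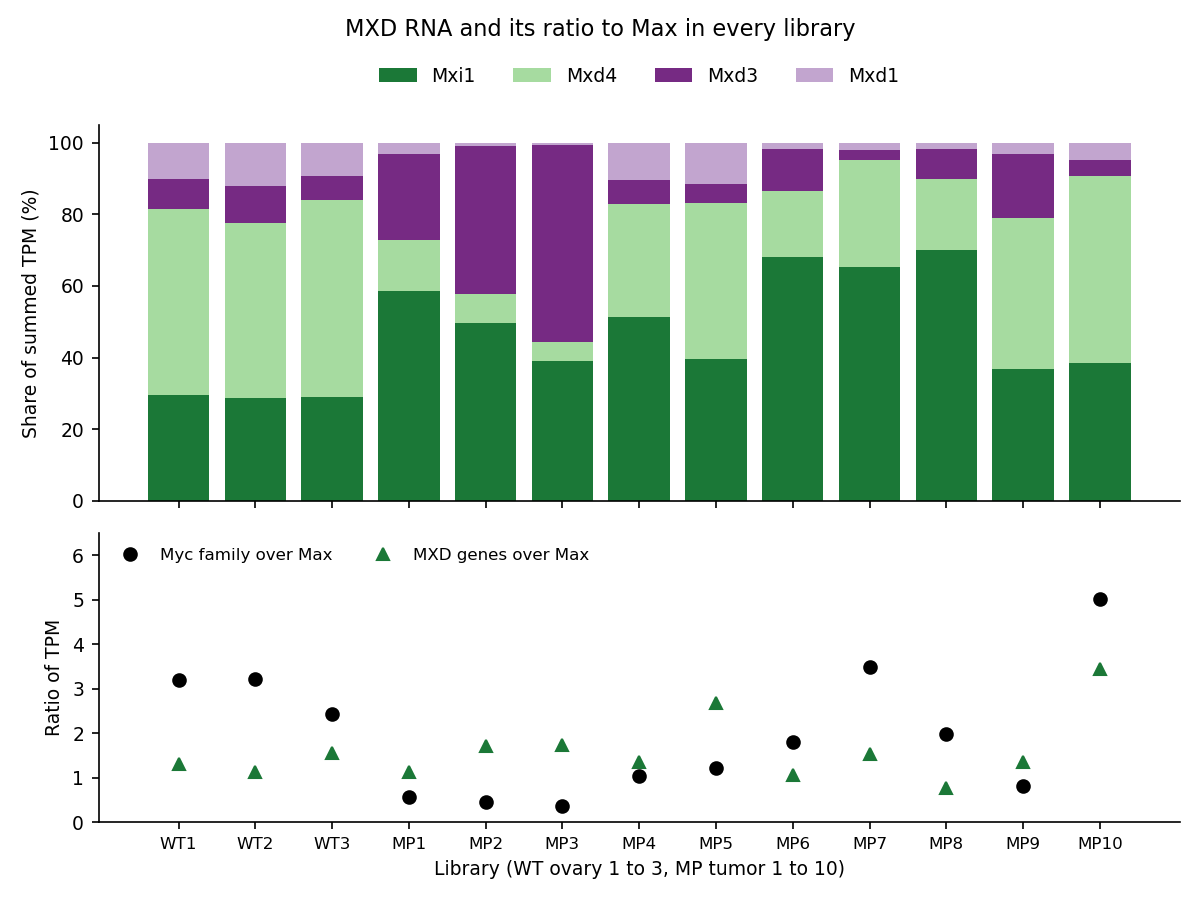
Percent of the summed TPM of Mxd1, Mxd3, Mxd4 and Mxi1 taken by each gene (top), and the ratio to Max of the summed Myc family and of the summed MXD genes (bottom), in every library. The Mxi1 share is 28.7% to 29.6% in the ovaries and 36.9% to 70.0% in the tumors, and the Myc family to Max ratio runs from 0.372 in MP3 to 5.02 in MP10.

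Mnt, a repressor present in resting and dividing cells alike (chromosome 11, 74830920 to 74845725, plus strand), held 34.0, 35.4 and 32.1 TPM in the ovaries. The tumors held 2.95, 1.32, 3.50, 22.9, 41.7, 24.6, 25.8, 26.97, 50.7 and 76.6 TPM, with 7 below and 3 above every ovary. Its log2 difference was -0.96 (SE 0.92, adjusted P 0.469, limma). Mga, the scaffold that brings MAX into a Polycomb repressive complex (chromosome 2, 119897228 to 119969581, plus strand), held 31.8, 30.3 and 24.8 TPM in the ovaries and 7.60, 13.3, 12.2, 19.6, 37.4, 28.1, 21.9, 26.9, 68.7 and 96.1 TPM in the tumors. The difference was -0.18 (SE 0.61, adjusted P 0.854). It turned positive and was called with the length trend removed (0.94, SE 0.28, adjusted P 0.0264, limma), and Mga is the longest of the 10 genes at 15340 bases. For Mnt, Mga and Mxd4 alike, the 3 tumors above every ovary were MP5, MP9 and MP10. These were also the only tumors with a positive rho to gene length, and the part of that trend in these levels was not tested.

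The ovaries share a label series with MP1 to MP3 only. Within series A, 8 of the 10 genes were lower and 0 higher (limma), while 57.3% of all genes tested were called lower there and 6.44% higher. The fits with label series as a covariate and with the replicate block also called 8 lower and 0 higher, beside 49.4% and 56.9% of all genes lower and 5.17% and 6.34% higher. The exceptions were Mxd3 (0.85, adjusted P 0.159) and Mxi1 (-0.52, adjusted P 0.242). Myc was lower by 8.54-fold on the log2(TPM + 1) scale (log2 -3.09, SE 0.45, adjusted P 0.000641), Mnt by 10.1-fold, Mxd4 by 11.7-fold and Mycl by 74.4-fold. The median over all genes in this comparison was -1.19. With the length trend removed or with median-of-ratios scaling, 6 of the 10 stayed lower, Myc at -2.004 and -1.50, beside 28.3% and 31.6% of all genes lower. Mxd3 was then higher at 1.82 and 2.39 (adjusted P 0.0125 and 0.00594, limma), Mxi1 at 1.16 and 1.09 (adjusted P 0.00311 and 0.00233), and Mga, with the length trend removed only, at 0.87 (adjusted P 0.0200). Of all genes 27.2% and 27.1% were called higher in these fits. At an unadjusted P value under 0.05 none of the 10 was higher in the series as deposited.

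**Figure D4:**
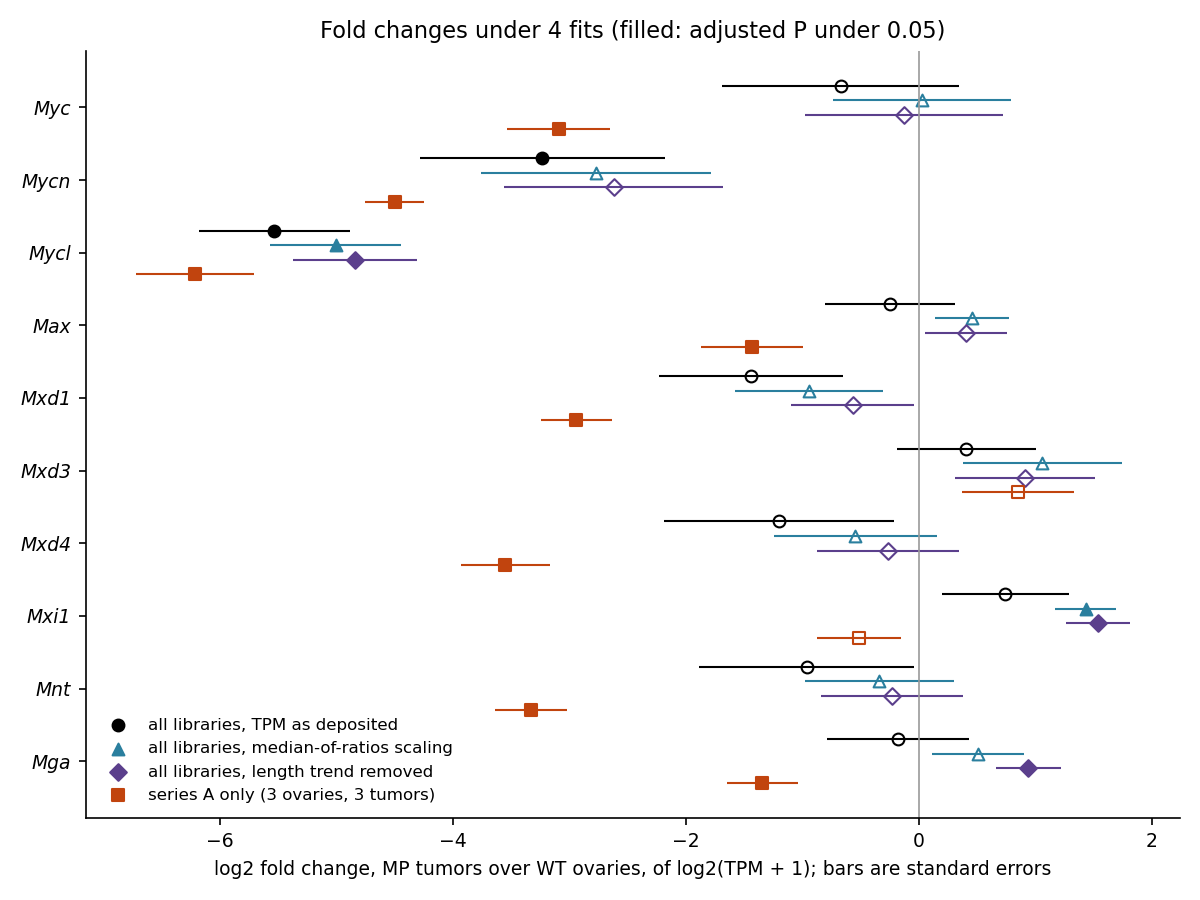
Fitted log2 difference of MP tumors from WT ovaries with its standard error for each gene under 4 limma fits, filled where the adjusted P is under 0.05. Mycl is at -4.84 or lower in each fit, Mxi1 is called at 1.43 and 1.54 after median-of-ratios scaling and removal of the length trend, and Myc is called only within series A, at -3.09.

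Among the tumors, 6 of the 10 genes differed between the 3 label series (limma F test), beside 22.3% of all genes tested. They were Myc (adjusted P 0.00375), Mnt (0.00347), Mxd4 (0.00669), Mxi1 (0.00995), Max (0.0268) and Mga (0.0422). Myc averaged 15.7 ± 8.83 TPM in series A (SD, n = 3), 116 ± 92.7 TPM in series B (n = 3) and 278 ± 128 TPM in series C (n = 4). Mnt averaged 2.59 ± 1.13, 29.7 ± 10.4 and 45.0 ± 24.0 TPM in the same order. Removing the length trend left 3 genes called beside 8.91% of all genes, Mnt, Myc and Mxd4 (adjusted P 0.0148, 0.0239 and 0.0468). Which property of the series these levels follow was not tested.

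Over the 10 tumors, Myc and Mxi1 levels moved together, with the highest r of the 10 relations tested. Among all 45 pairs of the network, given as a description, Mxd4 with Mnt (r 0.97) and Mxi1 with Mnt (0.95) had a higher r. Pearson's r of log2(TPM + 1) was 0.94 (permutation P 1e-05, the smallest that 100000 resamples can give, adjusted 0.0001) and Spearman's rho 0.88 (permutation P 0.00153, adjusted 0.0153). Without the 2 tumors farthest from the median of Myc, r was 0.87 (permutation, adjusted P 0.0143) and rho 0.76 (adjusted 0.324), so the rank relation was not called there. It was not called without MP1, MP2, MP3 or MP4 either (permutation, adjusted P 0.0799 to 0.0831). After centring each label series, r was 0.71 (exact permutation P 0.0394, adjusted 0.237), so within series the relation did not pass. With median-of-ratios scaling r was 0.94 (permutation, adjusted P 0.0037, rho 0.90). Myc also correlated with Mnt (r 0.86, rho 0.81), Max (r 0.83, rho 0.82) and Mxd4 (r 0.78, rho 0.68), with adjusted permutation P of 0.00693, 0.00693 and 0.0220 for r and of 0.0238, 0.0238 and 0.0687 for rho. After centring on series these r fell to 0.14, 0.30 and -0.01 (exact permutation, adjusted P 0.885, 0.885 and 0.969), and none passed without the 2 farthest tumors, where r was 0.67, 0.59 and 0.48. With median-of-ratios scaling all 3 lost their call as well, at r 0.73, 0.47 and 0.57 (permutation, adjusted P 0.109, 0.277 and 0.220). All 3 calls of r were also lost without MP2 (permutation, adjusted P 0.0522, 0.097 and 0.097). Mxd4 lost its call without MP3 or MP10 too (0.0630 and 0.0719). The share of all genes with such an r to Myc was not computed, so these relations are not shown to be particular to the network. Myc with Mga (r 0.69, adjusted permutation P 0.0517), Mxd1 (0.49) and Mxd3 (-0.27) did not pass. Myc with Mga did pass without MP7 or without MP9 (permutation, adjusted P 0.0376 and 0.0331), and its r fell to 0.20 with median-of-ratios scaling.

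The genes most like each family member over the 10 tumors were taken by Pearson's r of log2(TPM + 1), as a description. For Myc they were Dlat (r 0.98), a subunit of pyruvate dehydrogenase, Rsad1 (0.98) and Polr3e (0.98), a subunit of RNA polymerase III. Dlat ranged from 21.3 to 86.6 TPM in the tumors and was at 54.1 to 63.5 TPM in the ovaries. For Mycn they were Vwa3a (0.99), Lvrn (0.99) and Scg5 (0.99), each highest in MP9, where Scg5, a secretory granule protein, reached 115 TPM. For Mycl they were Srgap1 (0.98), Gpr39 (0.96) and Thsd7b (0.96), each highest in MP5, as Mycl was. These r may rest on that tumor, and r without it was not computed.

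Of 22 targets that MYC is known to raise, 8 were called higher and 0 lower, beside 2.51% and 14.3% of all genes, with a median log2 difference of 1.16 beside -0.58 for all genes. The calls included Ldha, lactate dehydrogenase A, at 346 ± 34.0 TPM in the ovaries and 800.4 to 3002 TPM in the tumors (2.27, SE 0.41, adjusted P 0.0016, limma). Nop56, a nucleolar protein of ribosome assembly, was at 62.6 ± 8.08 TPM and 167 to 387 TPM (2.16, adjusted P 0.000186). Gnl3, nucleostemin, was at 39.2 ± 4.36 TPM and 91.3 to 273 TPM (2.11, adjusted P 0.000208). All 10 tumors were above every ovary for each of these 3 genes, including the 3 tumors with the lowest values in the Myc row. The 3 genes were picked for the largest moderated statistics in this same comparison, so their lack of overlap is no separate result. Of all genes 19.4% were without overlap in either direction. Ccnd2 (-0.9998, adjusted P 0.285) was the only one of the 22 with a negative difference. Median-of-ratios scaling called 15 higher and removal of the length trend 18, beside 7.37% and 10.4% of all genes.

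Of 5 genes that MYC is known to repress, 3 were lower and 0 higher, beside 14.3% and 2.51% of all genes, with a median of -2.62. Cdkn2b, an inhibitor of CDK4 and CDK6, was at 132 ± 75.7 TPM in the ovaries and 1.02 to 18.2 TPM in the tumors (-4.20, SE 0.65, adjusted P 0.000382, limma). Gadd45a, a stress response gene, was at 139 ± 62.6 TPM and 2.92 to 31.4 TPM (-3.82, adjusted P 0.000358). Cdkn1a, the p21 cell cycle inhibitor and also a target of p53, was at 95.8 ± 54.8 TPM and 3.16 to 82.3 TPM (-2.62, adjusted P 0.0327). Gadd45a is likewise a known p53 target, and Trp53 was edited in these tumors, so the 2 alterations cannot be told apart. Granulosa cell (6 of 6), oocyte (6 of 6) and steroidogenic (4 of 5) markers were lower as well, and the part of such cells in these differences was not tested. With median-of-ratios scaling Cdkn1a was not called (-1.93, adjusted P 0.0624), which left 2 of 5 lower beside 11.0% of all genes.

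Genes acting on MYC protein stability gave 3 of 11 higher and 0 lower, beside 2.51% and 14.3% of all genes, with a median of -0.22. They were C330027C09Rik, the older symbol of Cip2a, which protects MYC from a phosphatase (1.70, adjusted P 0.00782, limma), Aurka (1.58, adjusted P 0.0151) and Skp2 (1.72, adjusted P 0.0268). All 3 are also expressed with the cell cycle, and of 6 proliferation markers 2 were higher and 0 lower, with 5 higher under median-of-ratios scaling, with the length trend removed and in voom. Fbxw7, the ubiquitin ligase adaptor that recognises MYC and a gene added here for that role, gave -0.96 (adjusted P 0.293).

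The cofactors of the network gave no call in limma on TPM as deposited, and some were called on other scales. None of 11 coactivators passed, although 2 were higher and 1 lower at an unadjusted P value under 0.05, and voom called 3 higher and 1 lower. Median-of-ratios scaling called 3 coactivators higher and removal of the length trend 4. Of all genes 7.37% were called higher with median-of-ratios scaling, 10.4% with the length trend removed and 10.9% in voom, and 5.63% were higher and 27.4% lower at an unadjusted P value under 0.05. Ruvbl2, an ATPase of chromatin remodelling complexes, was at 94.5 ± 10.6 TPM in the ovaries and 76.8 to 447 TPM in the tumors (1.41, adjusted P 0.0506, limma), above every ovary in 9 of 10. Trrap, a scaffold of histone acetyltransferases, was at 49.5 ± 7.53 TPM and 1.81 to 46.3 TPM (-2.03, adjusted P 0.0987), below every ovary in 9 of 10. None of 5 corepressors of MXD and MNT passed, also at an unadjusted P value under 0.05 and in voom, with Ncor1 at -1.46 (adjusted P 0.159). None of 6 genes of the MGA complex passed, with 1 higher and 1 lower at an unadjusted P value under 0.05 and 1 higher in voom, with median-of-ratios scaling and with the length trend removed. Among them Pcgf6, the Polycomb protein particular to that complex, was at 31.3 ± 5.17 TPM and 34.1 to 105 TPM (0.95, adjusted P 0.0881). None of the 4 genes of the extended network passed, with 1 higher at an unadjusted P value under 0.05 and 1 in voom, with median-of-ratios scaling and with the length trend removed. Its Mlxipl, the glucose-responsive factor ChREBP, was at 4.76 ± 0.987 TPM and 4.14 to 77.7 TPM (2.06, adjusted P 0.0822).

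Genes next to each family member on its chromosome gave 1 call each at Myc and Mycl, both lower, and none at Mycn, beside 14.3% of all genes called lower. Voom called 1 higher and 2 lower of 6 at Myc, 0 and 2 of 3 at Mycn, and 1 and 2 of 4 at Mycl, beside 10.9% and 23.4%, leaving out Bmp8b, which passed the filter on low values through the tumors alone. In MP10, the tumor with the most Myc in TPM, Pvt1, a long noncoding RNA beside Myc, was at 7.08 TPM against 3.78 to 4.37 TPM in the ovaries. Its highest level, 14.8 TPM, was in MP3, where Myc was at 15.3 TPM. Over all tumors Pvt1 gave 0.58 (adjusted P 0.349, limma). Sqle, a sterol synthesis enzyme near Myc, was lower (-1.62, adjusted P 0.0216), though not with median-of-ratios scaling (-0.91, adjusted P 0.0936, limma) or the length trend removed (-0.82, adjusted P 0.119), and the other 4 tested neighbours did not pass. In MP9, with the most Mycn, its neighbours Ddx1, Nbas and Fam49a were at 178, 16.6 and 11.8 TPM, the highest tumor value of each. Ddx1 was at 170 TPM in both MP6 and MP8, where Mycn was nearly absent. The ovary ranges of the 3 neighbours were 112 to 130, 16.7 to 20.1 and 7.38 to 10.3 TPM. None of these 3 was called, and 2 were lower at an unadjusted P value under 0.05. In MP5, with the most Mycl, Ppt1 was at 177 TPM and Cap1 at 267 TPM, the highest tumor values of both but below the ovaries' 206 to 281 and 305 to 325 TPM. Ppt1, a lysosomal enzyme, was the 1 Mycl neighbour called lower (-1.74, adjusted P 0.00794, limma), and it was below every ovary in 10 of 10 tumors. With median-of-ratios scaling it was not called (-1.02, adjusted P 0.0795, limma), and with the length trend removed it was (-1.08, adjusted P 0.0370).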

How the data were processed

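The values are TPM as deposited, in a single gene table in which each library keeps its own column. The submitters' processing notes name FastQC 0.11.5, Trimmomatic 0.36, STAR 2.5.3a and featureCounts 1.6.3 with mm10, whereas the label text names a human build, HTSeq and RPKM; build, counter and unit therefore follow the table, where 96.02% of genes have the start and end of GENCODE M21 (GRCm38). Columns were matched to samples by description, and 0 columns were left unused.

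Reads were recovered as TPM times length (all values whole within 0.01), so that 1 read per kb stood for 0.0513 to 0.790 TPM. Genes reaching 1 TPM in 3 libraries or more entered a fit by limma 3.58.1 (trended, robust; R 4.3.3) on log2(TPM + 1), all 10 MP tumors against 3 WT ovaries without a covariate, with Benjamini-Hochberg adjustment over all genes and a threshold of 0.05. On this scale the fold of a low gene comes out too small. Label series were compared by a limma F test over the tumors. Correlations used permutation tests, 2-sided, in scipy 1.17.1, and within series an exact test over all reorderings. The length trend was removed per library before refitting. The fit was tested on simulated data.

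The members and gene lists were chosen with earlier results of these data known, so they are not independent of them. The named genes are the 10 members, the 3 genes with the highest r to each Myc family gene, and up to 3 genes per list by moderated statistic, together with the neighbours of Myc, Mycn and Mycl on the chromosome. Wt1, Krt19, Pax8, Krt8, Epcam, the 5 steroidogenic markers, Fbxw7, Ccnd2 and Bmp8b are outside that rule or were picked after their values were seen. Lratd2 and Cyria were listed under the older symbols Fam84b and Fam49a, and no row was found under Cip2a, Lratd2 or Cyria. No source used here says which libraries came from separate mice, so P values measure the spread between samples. Pairs of libraries within a group differed by more than sampling noise (chi-square per degree of freedom at least 25.8).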

Additional observations from a re-analysis of the deposited data

Results flagged for a closer look

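Of 16 sets of values over the 10 tumors that were examined for a single tumor standing far from the rest, 3 had one. A nominal rate would give about 0.8, but the values are skewed and 2 of the 3 rest on the same Mycl value. No excess over chance is claimed. Mycn was at 36.3 TPM in MP9, and the next tumor, MP4, was at 15.3 TPM. Fibroblast markers were also high in MP9, with Dcn at 1050 and Lum at 910 TPM, where no other tumor exceeded 118 and 82.7 TPM, and their part in the Mycn value was not tested. Mycl was at 10.4 TPM in MP5, and the next tumor, MP9, was at 1.86 TPM. The Mycl share of the Myc family in MP5 was 11.3%, and the next was 3.05% in MP2; it follows from the same Mycl value and is not a separate observation. MP5 was the shallowest library (3892690 reads), and its Mycl level rested on 53 reads, with a 95% Poisson interval of 7.77 to 13.6 TPM for counting error. Of 6 granulosa cell markers 2 were highest in MP5 among the tumors, and the 6 summed to 846 TPM there, below the 1507 TPM of MP4. Amh was at 28.9 TPM, where no other tumor exceeded 3.38 TPM, and Fshr at 1.52 TPM against 0. Acta2 was at 1186 TPM against at most 229 TPM, and the 5 smooth muscle markers summed to 1267 TPM against at most 351 TPM. Their part in the Mycl value was not tested.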

How the results depend on the processing

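Limits: the ovaries share a label series with 3 tumors only, TPM is a share of each library, and the 7 tumors with the least Mycn had 0 to 3 reads of it, so their order is not known. The count of genes higher (0 as reported) was 1 with median-of-ratios scaling, quantile normalization or without the 3 tumors of series A, 2 with the length trend removed or in series A with median-of-ratios scaling, and 3 in series A with the length trend removed. The count lower (2) was 1 with a pseudocount of 0.1 or 0.5, no filter, a mean TPM of at least 5, median-of-ratios scaling, quantile normalization, the length trend removed or without the 3 tumors of series A, since Mycn was lost each time. It was 8 with label series as a covariate or alone, beside 49.4% and 57.3% of all genes, and 6 in series A with either correction. Leaving out 1 library gave 1 to 2 lower. The count differing between label series (6) was 3 with median-of-ratios scaling, 2 with quantile normalization, 3 with the length trend removed, 4 in voom, 5 without trend or robust weights, 7 with a pseudocount of 0.1, and 3 to 6 without 1 tumor, the lowest without MP2. Mga turned to 0.94 with the length trend removed and to 0.87 in series A with the same correction, and the correlation of Myc with Mxd4 to -0.0132 after centring on series. Without a call, the sign also changed for Myc (2 of 28 settings), Max (6), Mnt (1), Mxi1 (3) and Mga (6 more), and the correlation of Myc with Mycn in 7 of 14. The causes of these changes were not tested. The fits of series A with a correction and without its 3 tumors were chosen after seeing the data.

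With the replicate block, which uses the numbers 1 to 3 shared by ovaries and tumors, 8 genes were lower and 0 higher, beside 56.9% and 6.34% of all genes. The numbers did not pair the samples, since same-numbered deviations correlated at -0.0963, -0.0214 and 0.00118. Voom on the recovered reads and the fit without trend or robust weights kept the counts higher and lower, and Mycl was called lower in every one of the 28 alternatives.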

Other observations

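Bmp8b, a growth factor gene near Mycl that is known from germ cells and brown fat, was at 0.0694 to 0.172 TPM in the ovaries and reached 30.2 TPM in MP8 and 10.4 TPM in MP10. The other tumors held 0 to 5.38 TPM, and 7 of the 10 were above 1 TPM. In the same 2 tumors Mycl itself was at 1.29 and 0.955 TPM. Bmp8b was singled out after its values were seen and passed the filter on low values through the tumors alone, so no test is given.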
